A study of Homo sapiens with 20 samples.

Results

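Matrix metalloproteinases (MMPs), their tissue inhibitors (TIMPs) and the ADAMTS proteases were followed across the melanoma cell line WM793 and 4 lines made from it to overexpress NME1. Members were all rows of the expression table with a platform gene symbol that is MMP, TIMP or ADAMTS followed by a digit. There were 51 such rows among 18708, with 26 MMP, 5 TIMP and 20 ADAMTS rows. They carried 46 distinct symbols, of which 24 were MMP, 4 TIMP and 18 ADAMTS symbols. A symbol with several rows was represented by the brightest of them. This left out 3 rows (of ADAMTS6, MMP16 and ADAMTS13) and kept 48 of the 18384 features tested. Of the 51 rows, 4 carried several symbols and are written here with all of them. MMP23A and MMP23B are near-identical copies, so their rows are uncertain.

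WM793 is an established cell line from a vertical growth phase melanoma, the stage at which a melanoma invades the dermis. NME1, an enzyme that transfers phosphate between nucleotides, is known for holding back metastasis, and the study sought the expression pattern that goes with that function. The 5 lines, all grown for 3 days, were the unmodified cells (Parent), cells given wild-type NME1 (NME1-wild-type), and cells given a mutant form (NME1-E5A, NME1-K12Q or NME1-P96S). Each line was hybridised to 4 Affymetrix Human Exon 1.0 ST arrays, which the study calls technical replicates. With a single line for each construct, the p-values below measure only the spread between arrays of the same line. The sources used here do not give the promoter that drives the constructs or whether a line is a clone or a pool. The row of NME1, shared with the NME1-NME2 readthrough transcript, read 9.53 ± 0.173 (SD, n = 4) in Parent and was higher by 0.28 in NME1-wild-type, 0.26 in NME1-E5A, 0.23 in NME1-K12Q and 0.25 in NME1-P96S without passing the test in any of them (limma, lowest adjusted p = 0.85). A line is therefore named by its label throughout.

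MMPs are zinc-dependent endopeptidases, mostly secreted as inactive proenzymes, that cut collagens, gelatin, proteoglycans and other matrix and cell surface proteins. TIMPs are small secreted proteins that bind the active site of these enzymes and block it, and TIMP3 also blocks several ADAM and ADAMTS enzymes. ADAMTS proteases are secreted relatives with thrombospondin repeats that cut aggrecan and versican, trim procollagens or process von Willebrand factor. In melanoma, MMPs are known for opening the basement membrane and dermal matrix to invading cells.

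All values are log2 expression values as the authors normalised them, so a difference of 1 is a doubling of signal. The level of a row depends on its probes, so a higher level in 1 gene than in another is not read as more RNA. Mean level served to choose rows and genes to show and to filter features. A member was called changed between lines where it differed at least 1.5-fold with an adjusted p under 0.05 (limma, Benjamini-Hochberg over the 18384 features). The same 4 Parent arrays served all 4 comparisons with Parent.

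Among the 48 members, 3 differed over the 5 lines, all of them MMPs: MMP3 (F-test in limma, adjusted p = 2.62e-05), MMP8 (adjusted p = 0.0204) and MMP9 (adjusted p = 0.0386). Over all features, 0.582% passed this F-test. With each array centred on its median, MMP8 no longer passed it, which left MMP3 and MMP9. The members next in order were MMP14, with an adjusted p of 0.226, and ADAMTS1, with 0.509. None of the 5 TIMP features and none of the 18 ADAMTS features passed the F-test or any of the 10 pairwise comparisons.

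Against Parent, the call was made for a single member in the main fit, which has no term for the replicate number. With the replicate number as a block, MMP3 passed in NME1-wild-type, NME1-E5A and NME1-K12Q. The counts that follow are those of the main fit. In NME1-P96S, 1 member was called, MMP8, which was higher, beside 0.103% of all features. In NME1-wild-type, 0 members were called in limma, beside 0.0326% of all features. At an unadjusted p under 0.05 there was 1 member, MMP3, beside 1.38% of all features. In NME1-E5A, 0 members were called in limma, beside 0.218% of all features. Unadjusted, 5 members (MMP3, MMP8, MMP9, MMP14 and ADAMTS1) were under 0.05 there, beside 2.98% of all features. In NME1-K12Q, 0 members were called in limma, beside 0.00544% of all features. Unadjusted, 4 members (MMP1, MMP3, MMP12 and MMP14) were under 0.05, beside 1.48% of all features.

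Between the NME1 lines, the calls again fell on MMP3, MMP8 and MMP9. NME1-E5A differed from NME1-wild-type in 2 members, MMP3 (lower) and MMP9 (higher), beside 0.207% of all features. NME1-P96S differed from NME1-wild-type in 1 member, MMP3 (lower), beside 0.201% of all features. NME1-K12Q differed from NME1-E5A in 1 member, MMP3 (higher), beside 0.169% of all features. NME1-P96S differed from NME1-E5A in 1 member, MMP9 (lower), beside 0.239% of all features, and from NME1-K12Q in 2 members, MMP8 (higher) and MMP3 (lower), beside 0.277% of all features. NME1-K12Q and NME1-wild-type differed in 0 members in limma, beside 0.0381% of all features. At an unadjusted p under 0.05, 2 members (MMP14 and ADAMTS1) stood apart between those lines, beside 1.29% of all features.

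MMP3, or stromelysin 1, cuts proteoglycans, laminin and fibronectin and activates other proMMPs. It read 5.94, 5.94, 5.85 and 5.73 on the Parent arrays, 6.80, 6.46, 6.33 and 6.40 in NME1-wild-type, and 6.88, 6.45, 6.62 and 6.70 in NME1-K12Q. It read 5.38, 5.27, 5.19 and 5.16 in NME1-E5A and 6.08, 5.77, 5.46 and 5.71 in NME1-P96S. The lines thus fell into an upper pair (NME1-K12Q and NME1-wild-type), a middle pair (Parent and NME1-P96S) and NME1-E5A at the bottom. Within each pair the arrays overlapped, and between these levels they did not.

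The largest MMP3 difference lay between NME1-K12Q at 6.66 ± 0.177 (SD, n = 4) and NME1-E5A at 5.25 ± 0.0986, a log2 difference of 1.41 (SE 0.136) or 2.67-fold (limma, adjusted p = 1.58e-05). NME1-E5A was lower than NME1-wild-type, at 6.50 ± 0.209, by 2.38-fold (log2 difference -1.25, limma adjusted p = 8.85e-05). NME1-P96S, at 5.76 ± 0.255, was lower than NME1-K12Q by 1.88-fold (-0.91, adjusted p = 0.00312) and lower than NME1-wild-type by 1.68-fold (-0.75, adjusted p = 0.0205). The last of these no longer passed without NME1-wild-type replicate 1 or 2 or NME1-P96S replicate 2 or 4, nor after quantile normalisation (-0.74, adjusted p = 0.0894). With array weights it was -0.55, under the minimum fold (adjusted p = 0.016). Fitted to the arrays of the compared lines alone, both differences of NME1-P96S lost the call (adjusted p = 0.216 against NME1-K12Q and 0.552 against NME1-wild-type). NME1-K12Q and NME1-wild-type were separated by 0.16, with a 95% interval from -0.12 to 0.45, and NME1-P96S and Parent by -0.11, with an interval from -0.39 to 0.17. These intervals, like all below, are not adjusted for the number of features.

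Against Parent, at 5.87 ± 0.0957, MMP3 did not pass in any line in the main fit, though its arrays separated in 3 of the 4 comparisons. The difference was 0.80 in NME1-K12Q (limma, adjusted p = 0.0969), 0.64 in NME1-wild-type (adjusted p = 0.257) and -0.62 in NME1-E5A (adjusted p = 0.0736). The unadjusted p was 1.05e-05, 0.000154 and 0.00021 in the same order. Each of these exceeded the threshold fold, so in this fit, which has no term for the replicate number, the adjusted p was what kept them from the call. With the replicate number as a block, MMP3 passed in all 3 of these lines. The differences in NME1-E5A and NME1-K12Q passed when NME1-P96S replicate 1 or 3, which shares in the estimate of the spread, was left out.

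MMP8, or neutrophil collagenase, cuts fibrillar collagens and is best known from neutrophil granules. It read 8.89, 8.20, 8.62 and 8.88 on the Parent arrays, and 9.98, 9.80, 9.22 and 9.66 in NME1-P96S. The remaining lines read 9.07, 8.77, 8.95 and 9.07 (NME1-wild-type), 9.13, 9.01, 9.23 and 9.16 (NME1-E5A) and 8.95, 8.57, 8.94 and 8.93 (NME1-K12Q). All 4 NME1-P96S arrays were above every array of Parent, NME1-wild-type and NME1-K12Q, while NME1-P96S replicate 3 lay inside the range of NME1-E5A.

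MMP8 rose 2.02-fold in NME1-P96S against Parent, from 8.65 ± 0.322 to 9.67 ± 0.323 (SD, n = 4), a log2 difference of 1.02 (SE 0.165, limma adjusted p = 0.0139). It was 1.77-fold higher in NME1-P96S than in NME1-K12Q, at 8.84 ± 0.187 (0.82, adjusted p = 0.0303). Against NME1-wild-type, at 8.97 ± 0.141, the difference of 0.70 did not pass (adjusted p = 0.125), nor did the 0.54 against NME1-E5A, at 9.13 ± 0.0926 (adjusted p = 0.395). The difference from NME1-wild-type passed without Parent replicate 2 or NME1-P96S replicate 3. The difference from Parent lost the call without Parent replicate 3 (adjusted p = 0.0752) or without NME1-P96S replicate 1, 2 or 4 (0.0602, 0.0623 and 0.0601). The difference from NME1-K12Q lost it without any single NME1-K12Q array, without NME1-P96S replicate 1, 2 or 4, or with arrays centred on their medians (0.83, adjusted p = 0.0934). Fitted to the arrays of the compared lines alone, both lost it (adjusted p = 0.981 against Parent and 0.414 against NME1-K12Q).

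In every line, the lowest MMP8 array was replicate 2, except in NME1-P96S, where it was replicate 3. Parent replicate 2, NME1-K12Q replicate 2 and NME1-P96S replicate 3 were also the 3 arrays with the narrowest interquartile range over all features (2.19, 2.46 and 2.33). Without these 3 arrays the difference of MMP8 from Parent in NME1-P96S was 1.02, with a limma adjusted p of 0.000611. Of 9 leukocyte markers measured, 0 changed between any of the lines in limma, beside 0.00544% to 0.277% of all features in a single comparison. The mean of these markers per array spanned 4.92 to 5.89 in Parent and 4.74 to 5.75 in NME1-P96S. The neutrophil granule genes MPO and ELANE differed by -0.10 and -0.23 in NME1-P96S against Parent. Of the 9 leukocyte markers, 0 had a positive difference there, with a median of -0.18 beside -0.06 over all features. The part of Parent replicate 2 in these differences was not tested, nor was the source of the MMP8 signal.

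MMP9, or gelatinase B, cuts denatured collagen and the type IV collagen of basement membranes. It read 6.95, 6.82, 6.95 and 7.10 on the NME1-E5A arrays, and 6.18, 6.61, 6.34 and 6.09 in Parent. The remaining lines read 6.32, 6.27, 6.08 and 6.31 (NME1-wild-type), 6.37, 6.63, 6.30 and 6.43 (NME1-K12Q) and 5.90, 6.0, 6.57 and 6.25 (NME1-P96S). Each NME1-E5A array lay above all 16 arrays of the remaining lines, which overlapped one another.

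MMP9 was 1.64-fold higher in NME1-E5A, at 6.96 ± 0.111 (SD, n = 4), than in NME1-wild-type, at 6.25 ± 0.112 (log2 difference 0.71, SE 0.144, limma adjusted p = 0.0424). It was 1.71-fold lower in NME1-P96S, at 6.18 ± 0.3, than in NME1-E5A (-0.78, adjusted p = 0.0159). The differences of NME1-E5A from Parent, at 6.30 ± 0.226, and from NME1-K12Q, at 6.43 ± 0.144, did not pass (0.65, adjusted p = 0.0736, and -0.52 for NME1-K12Q against NME1-E5A, adjusted p = 0.326). The difference from Parent passed without Parent replicate 2 or NME1-P96S replicate 3. MMP9 also passed against Parent in NME1-E5A among features above the median level alone. The call against NME1-wild-type was close to the threshold and was lost in 18 of the 34 alternatives run on it. Among arrays left out singly, it was kept in the absence of NME1-P96S replicate 1 or 3, NME1-K12Q replicate 2, or Parent replicate 2 or 4, and lost in the absence of any other, with adjusted p up to 0.218. The call against NME1-P96S was lost without NME1-E5A replicate 1, 3 or 4 or NME1-P96S replicate 1, 2 or 4, at adjusted p from 0.0522 to 0.0877, and with the arrays of those lines alone (0.27). In NME1-E5A, then, MMP9 was at its highest and MMP3 at its lowest of the 5 lines.

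**Figure D1:**
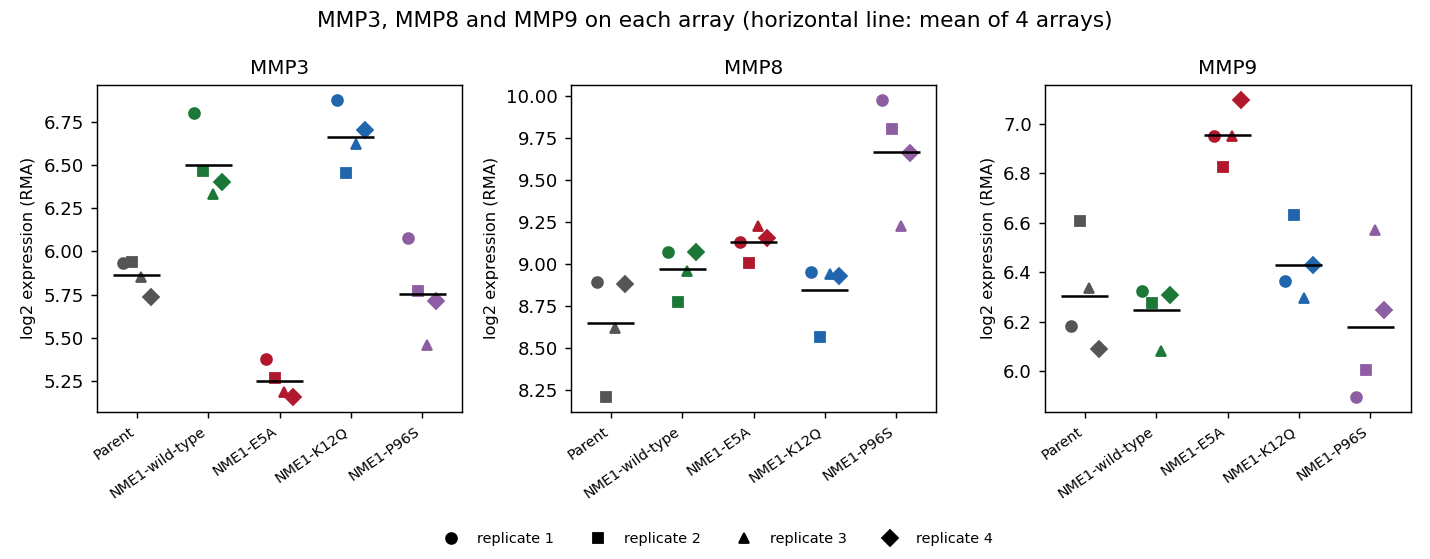
Log2 expression of MMP3, MMP8 and MMP9 (vertical axes) on each of the 4 arrays of the 5 lines (horizontal axes), with the marker shape giving the replicate number and the horizontal line the mean. MMP3 is lowest in NME1-E5A (5.25) and highest in NME1-K12Q (6.66), MMP8 is highest in NME1-P96S (9.67), and the 4 NME1-E5A arrays of MMP9 lie above all others.

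MMP3 and MMP8 belong to a run of 9 MMP genes on chromosome 11, which in RefSeq order are MMP7, MMP20, MMP27, MMP8, MMP10, MMP1, MMP3, MMP12 and MMP13, with no other protein-coding gene between them. MMP8 and MMP3 were the members of this run that passed the F-test, and they did not follow the same lines. With the lines in the order NME1-wild-type, E5A, K12Q and P96S, MMP3 differed from Parent by 0.64, -0.62, 0.80 and -0.11, and MMP8 by 0.32, 0.48, 0.20 and 1.02. MMP10, stromelysin 2, which lies between them and is a close relative of MMP3, differed by -0.06, -0.18, 0.07 and -0.09. MMP1, interstitial collagenase, the direct neighbour of MMP3, differed by 0.23, -0.11, 0.29 and -0.01. MMP12, the macrophage elastase on the far side of MMP3, differed by 0.03, 0.06, 0.29 and -0.01. MMP10 and MMP12 read low, averaging 3.92 and 3.69 over the 20 arrays, beside array medians between 6.27 and 6.50. RMA compresses differences at low signal, so their small differences say little about whether they followed their neighbours. The signs of MMP1 followed those of MMP3 in all 4 lines at a smaller size, and MMP1 did not pass (F-test, adjusted p = 0.959).

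**Figure D2:**
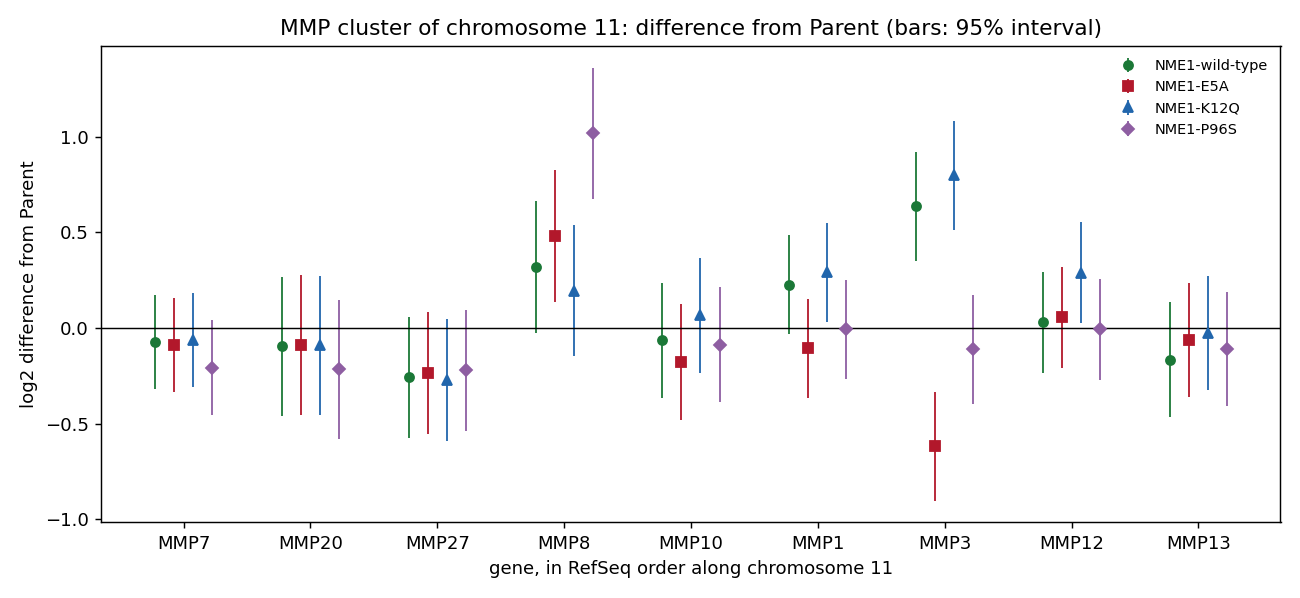
Log2 difference from Parent (vertical axis) of the 9 MMP genes in RefSeq order along chromosome 11 (horizontal axis) in the 4 NME1 lines, with bars for the 95% interval. MMP3 spreads from -0.62 in NME1-E5A to 0.80 in NME1-K12Q and MMP8 reaches 1.02 in NME1-P96S, while the genes around them lie nearer to 0. All of those genes but MMP1 read low, with means over the 20 arrays from 3.49 (MMP13) to 3.95 (MMP20).

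Promoter sequence was available for 26 of the 46 member genes in a RefSeq table of assembly GRCh38.p14. It was missing for MMP1, MMP2, MMP3, MMP9, MMP12 and MMP13, among others. The motif counts below thus cover neither MMP3 nor MMP9. For the chromosome 11 run, 3 promoters are shown to set MMP8, which changed, beside MMP10 and MMP7, which read low and did not pass. Many MMP promoters are known to hold a TATA box and a site for the AP-1 factor near the start of transcription. Each stretch is the 120 bases just before the RefSeq start, 5′ to 3′ on the minus strand, with motif matches, sought on both strands, in capitals. The motif of the box is TATAAA. The motif of the factor AP-1 is TGAGTCA.
MMP8, chr11:102724955-102725074: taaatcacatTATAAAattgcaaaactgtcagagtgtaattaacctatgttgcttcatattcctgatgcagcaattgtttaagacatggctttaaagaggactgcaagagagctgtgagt
MMP10, chr11:102780629-102780748: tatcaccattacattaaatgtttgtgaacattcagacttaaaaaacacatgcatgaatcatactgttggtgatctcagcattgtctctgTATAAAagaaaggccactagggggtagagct
MMP7, chr11:102530748-102530867: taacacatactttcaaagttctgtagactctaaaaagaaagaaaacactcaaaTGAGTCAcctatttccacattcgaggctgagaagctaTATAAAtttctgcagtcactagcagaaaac
The first base of the TATAAA match lay 30 and 31 bases before the start in MMP7 and MMP10, and 110 bases before it in MMP8. The AP-1 match of MMP7 began 67 bases before the start. Over the 250 bases upstream of a start, TGAGTCA was held by 1 of the 26 member genes and by 4.2% of 35116 promoters in the table. TATAAA was held by 7 of the 26 and by 10.7% of all promoters. Its first base lay 28 to 31 bases before the start in MMP7, MMP10 and MMP26. In ADAMTS10, MMP8, MMP20 and MMP21 it lay 72 to 110 bases before the start. AGGAAG, the core of a site for ETS factors of the PEA3 group, was held by 6 of the 26 and by 28.7% of all promoters. The member counts are of genes and the shares are of promoters. A match is a description of these letters and says nothing of whether a factor binds.

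Among the other collagenases and gelatinases, MMP1 read 12.42, 12.14, 12.07 and 12.07 on the Parent arrays, 12.56, 12.33, 12.37 and 12.36 in NME1-wild-type, 12.28, 11.92, 12.10 and 11.97 in NME1-E5A, 12.55, 12.36, 12.50 and 12.45 in NME1-K12Q, and 12.47, 12.16, 11.97 and 12.07 in NME1-P96S. Replicate 1 was the highest MMP1 array in every line, and the ranges of all 4 NME1 lines overlapped that of Parent. The largest difference was 0.40 between NME1-K12Q and NME1-E5A, which did not pass (limma, adjusted p = 0.59). MMP13, collagenase 3, stayed between 3.22 and 3.98 on all 20 arrays.

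MMP2, or gelatinase A, which MMP14 and TIMP2 bring to activation at the cell surface, read 11.30, 11.25, 11.30 and 11.41 on the Parent arrays and 11.44, 11.65, 11.44 and 11.59 in NME1-P96S. The remaining lines read 11.01, 10.91, 11.52 and 11.45 (NME1-wild-type), 11.14, 11.44, 11.51 and 11.45 (NME1-E5A) and 11.34, 11.48, 11.59 and 11.49 (NME1-K12Q). The NME1-P96S arrays lay above those of Parent, but the difference of 0.22 had a 95% interval from -0.06 to 0.50 (limma, adjusted p = 0.85). MMP2 in NME1-wild-type was split between 2 low and 2 high arrays, and its difference from Parent was -0.09.

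Of the membrane-type MMPs, MMP14, which activates proMMP2 and cuts collagen at the cell surface, came nearest to the F-test threshold. Its means were 10.06 in Parent, 9.98 in NME1-wild-type, 10.33 in NME1-E5A, 10.41 in NME1-K12Q and 9.99 in NME1-P96S. The differences of 0.43 between NME1-K12Q and NME1-wild-type (limma, adjusted p = 0.868) and of -0.42 between NME1-P96S and NME1-K12Q (adjusted p = 0.222) did not pass, although the arrays did not overlap in either. MMP16 differed from Parent by 0.45 in NME1-E5A with overlapping arrays. Parent replicate 2 read 6.62 there, beside 7.41 to 7.98 on the other Parent arrays. The dimmer MMP16 row, left out of the test, averaged 7.39 in NME1-E5A and 7.18 in Parent. MMP15, MMP17, MMP24 and MMP25 differed from Parent by between -0.21 and 0.10 in the 4 lines.

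The remaining MMPs showed no call. MMP7 and MMP26, the matrilysins, stayed between 3.30 and 3.91 and between 3.01 and 4.25 on the 20 arrays, and MMP11, stromelysin 3, between 6.07 and 7.15. MMP20, the enamel MMP, stayed between 3.55 and 4.41. MMP19, whose own row had the smallest residual SD of all members at 0.0841, spanned 5.78 to 6.16, and the MMP19;TMEM198B row 6.44 to 7.06. MMP21 spanned 4.42 to 5.71, MMP27 3.36 to 4.14 and MMP28, epilysin, 4.96 to 6.30. The MMP23A row and the MMP23B;MMP23A row were among the noisiest, with residual SDs of 0.389 and 0.466 and ranges of 6.07 to 7.51 and 6.11 to 7.92. Over the 25 MMP features, the median difference from Parent was -0.06 in NME1-wild-type, NME1-E5A and NME1-K12Q alike and -0.11 in NME1-P96S.

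Among the inhibitors, TIMP1, which blocks most secreted MMPs and binds proMMP9, read 10.95, 10.94, 10.98 and 11.07 on the Parent arrays. It read 11.05, 11.48, 10.93 and 11.23 in NME1-wild-type, 11.33, 11.03, 11.06 and 11.27 in NME1-E5A, 11.16, 11.07, 11.06 and 11.22 in NME1-K12Q, and 11.26, 11.04, 10.89 and 11.23 in NME1-P96S. Parent was the lowest line in mean, but every NME1 line overlapped it. The differences ran from 0.12 to 0.19, and for NME1-wild-type the 95% interval was -0.07 to 0.45 (limma, adjusted p = 0.997).

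TIMP2, which both inhibits MMP14 and bridges it to proMMP2, was the most even inhibitor, with means of 10.36 in Parent, 10.37 in NME1-wild-type, 10.43 in NME1-E5A, 10.32 in NME1-K12Q and 10.39 in NME1-P96S. Its difference in NME1-wild-type was 0.00, with a 95% interval from -0.23 to 0.24. TIMP3, the matrix-bound inhibitor, read 10.74, 10.39, 10.91 and 10.93 on the Parent arrays and 10.92, 11.21, 11.09 and 11.15 in NME1-P96S. It read 10.70, 10.87, 11.08 and 11.11 in NME1-wild-type, 10.61, 10.83, 10.88 and 10.91 in NME1-E5A, and 10.64, 10.96, 10.86 and 11.02 in NME1-K12Q. Parent replicate 2 was the lowest of the 20 arrays, and NME1-P96S overlapped Parent, with a difference of 0.35 and a 95% interval from 0.06 to 0.63 (limma, adjusted p = 0.85). TIMP4 spanned 4.50 to 6.13, and the SYN3;TIMP3 row, from a region where TIMP3 lies within SYN3, 5.08 to 6.57.

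Of the ADAMTS proteases that cut aggrecan and versican, ADAMTS1 varied most clearly between lines. It read 8.06, 8.01, 8.46 and 8.54 in NME1-wild-type, 8.66, 8.57, 8.25 and 8.51 in Parent, 8.62, 8.74, 8.85 and 8.86 in NME1-E5A, 8.67, 8.49, 8.57 and 8.55 in NME1-K12Q, and 8.76, 8.75, 8.58 and 8.76 in NME1-P96S. NME1-wild-type lay below NME1-E5A and below NME1-P96S on every array and overlapped Parent. The differences of 0.50 for NME1-E5A against NME1-wild-type (limma, adjusted p = 0.24) and 0.45 for NME1-P96S against NME1-wild-type (adjusted p = 0.403) did not pass. ADAMTS9 differed by 0.50 between NME1-P96S and NME1-wild-type (adjusted p = 0.403), with overlapping arrays. ADAMTS4, ADAMTS5, ADAMTS8 and ADAMTS15 spanned 4.57 to 6.06, 4.24 to 4.93, 5.77 to 6.96 and 4.98 to 6.17, and the ADAMTS20;THAP12 row 3.09 to 3.77.

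ADAMTS12, known to cut cartilage oligomeric matrix protein, read 7.29, 7.03, 7.46 and 7.68 on the Parent arrays, 7.20, 7.17, 7.53 and 7.53 in NME1-wild-type, 7.15, 7.57, 7.46 and 7.48 in NME1-E5A, 7.35, 7.50, 7.59 and 7.76 in NME1-K12Q, and 6.83, 7.26, 6.78 and 7.07 in NME1-P96S. NME1-P96S was the lowest line and did not overlap NME1-K12Q (difference -0.56, limma adjusted p = 0.224), but overlapped Parent (-0.38, adjusted p = 0.85). The procollagen N-proteinases ADAMTS2, ADAMTS3 and ADAMTS14 differed from Parent by between -0.32 and 0.06, and ADAMTS13, which cuts von Willebrand factor, by between -0.18 and -0.10. ADAMTS6, a relative of ADAMTS10, differed by -0.55 between NME1-P96S and NME1-wild-type, whose arrays did not overlap, without passing (limma, adjusted p = 0.638). The dimmer ADAMTS6 row, left out of the test, averaged 4.63 in NME1-P96S and 4.92 in NME1-wild-type, with overlapping arrays. ADAMTS10, ADAMTS16, ADAMTS17, ADAMTS18 and ADAMTS19 spanned 5.36 to 6.54, 6.49 to 6.89, 6.36 to 7.21, 3.96 to 5.01 and 3.90 to 4.99.

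**Figure D3:**
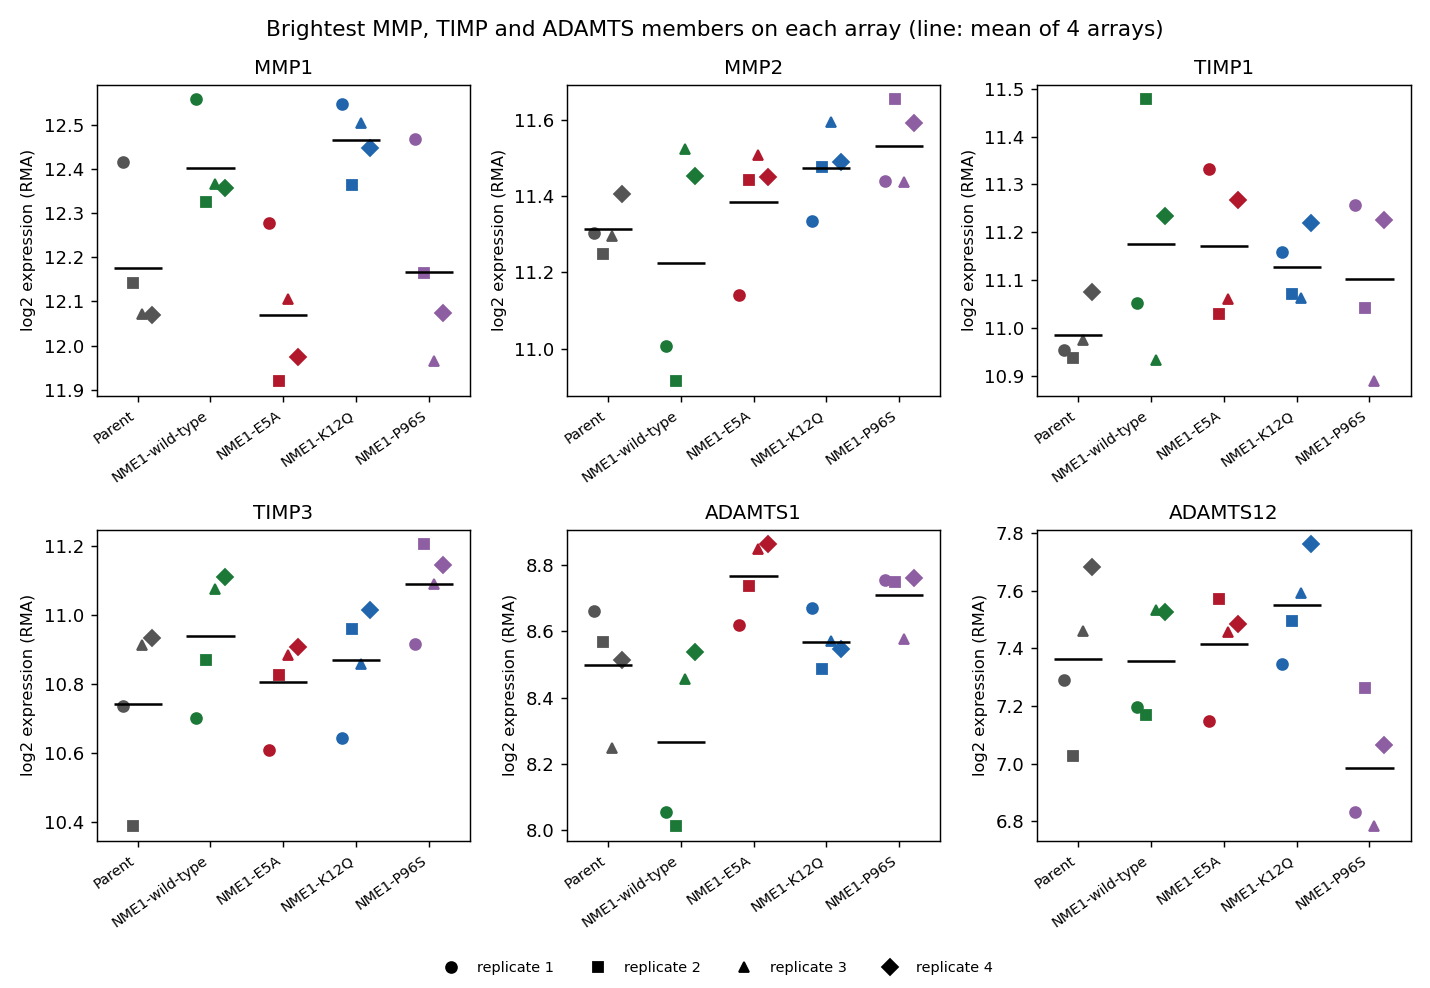
Log2 expression (vertical axes, a separate scale in each panel) of MMP1, MMP2, TIMP1, TIMP3, ADAMTS1 and ADAMTS12 on each array of the 5 lines, with marker shapes for the replicate number and a horizontal line for the mean. None passed a comparison, and most lines overlap, as for TIMP1, where the differences from Parent ran from 0.12 to 0.19.

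Over all 48 members, more differences from Parent were negative than positive in each line. There were 38 negative differences in NME1-wild-type (median -0.07), 32 in NME1-E5A (-0.09), 31 in NME1-K12Q (-0.06) and 34 in NME1-P96S (-0.12). Over all features the medians were -0.03, -0.04, -0.05 and -0.06. Negative differences made up 79.2%, 66.7%, 64.6% and 70.8% of the members, beside 58.9%, 60.8%, 63.7% and 61.7% of all features. Parent replicate 2, the array with the narrowest spread, moved with this: it was the highest of the 20 arrays for 23 of the 48 members and for 34% of all features. Without it, the members' medians were 0.03, 0.07, 0.06 and 0.01, and 18, 12, 15 and 21 differences were negative, beside 42.9%, 46.1%, 44.8% and 54.3% of all features. The sign of the members' median thus turned in all 4 lines when that single array was left out. Without the 3 narrowest arrays, the median was 0.03 in NME1-wild-type and 0.07 in NME1-E5A but -0.02 in NME1-K12Q and -0.08 in NME1-P96S. In the last pair, 28 and 30 differences were negative, beside 55.4% and 58.3% of all features.

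**Figure D4:**
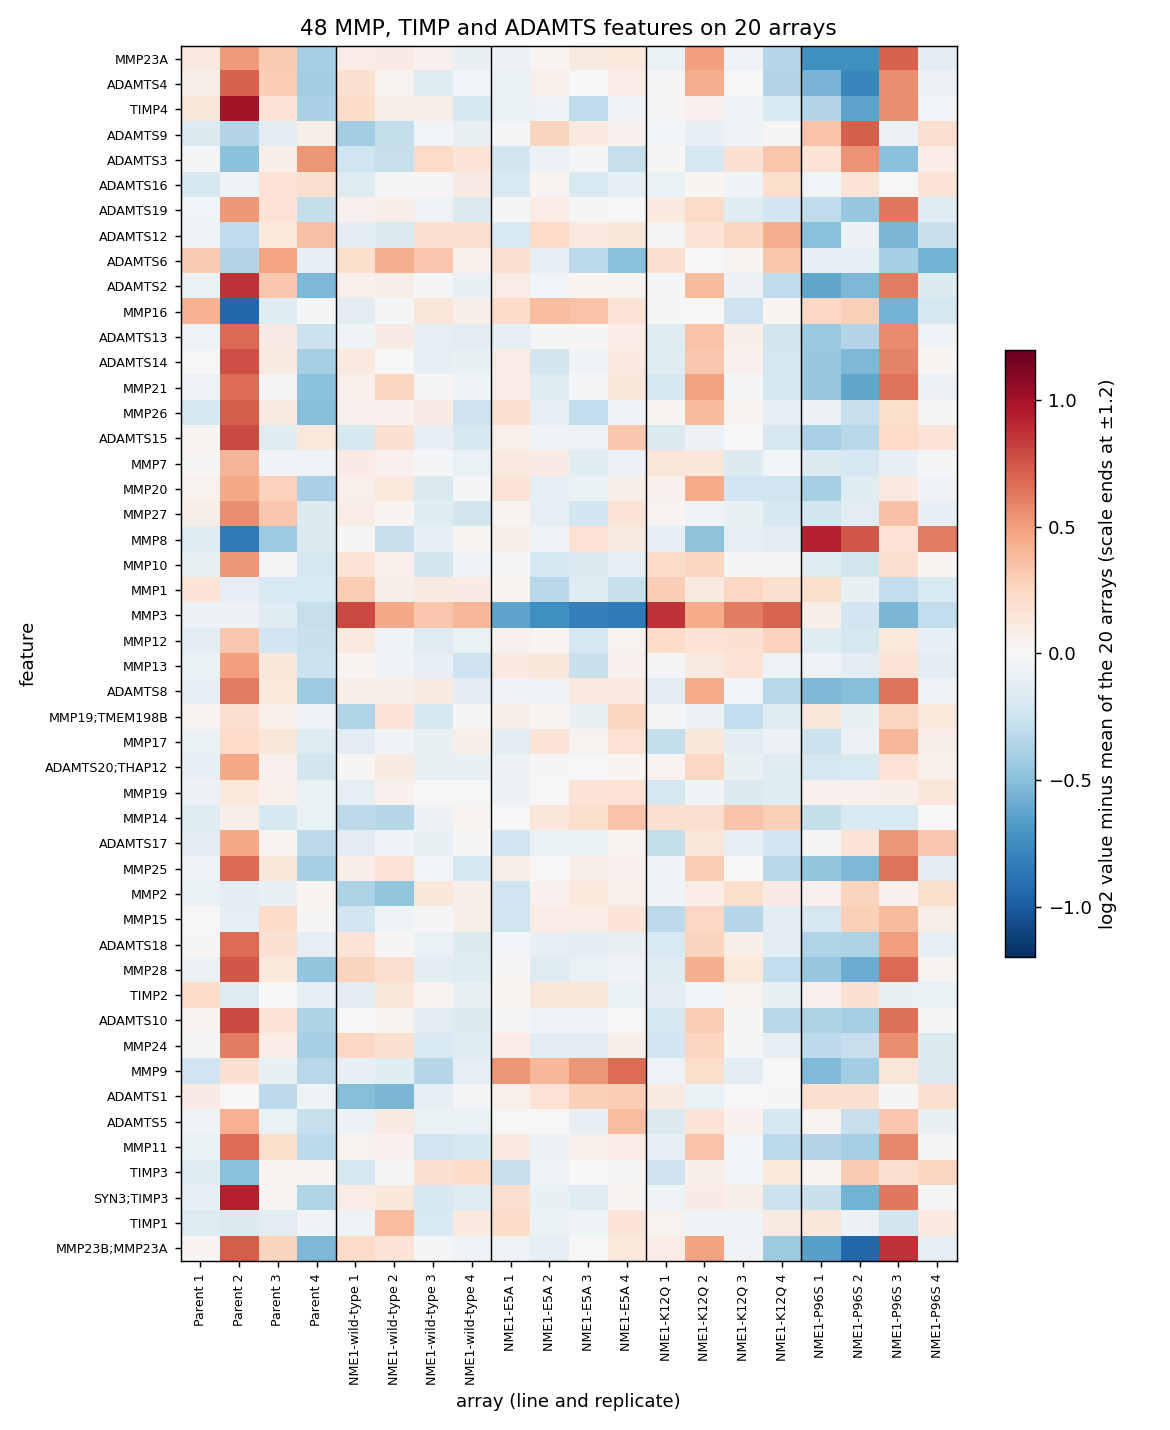
Log2 value of each of the 48 features (rows) on each of the 20 arrays (columns) minus the feature's mean over all arrays, with red above and blue below the mean and black lines between the 5 lines. Parent replicate 2 is red for many features (the highest array for 23 of 48), and the MMP3 row changes colour between lines.

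The other genes of matrix proteolysis were counted in 7 lists. Against Parent, 0 genes passed in limma in any of the 4 lines among 16 partners, activators and membrane regulators, 6 genes of plasminogen activation, 8 ADAM proteinases, 5 ADAMTS-like proteins, 7 cathepsins and related genes and 16 transcription factors known to act on MMP promoters. Among 25 matrix substrates, 1 gene fell, ACAN, in NME1-E5A. ACAN encodes aggrecan, the proteoglycan that ADAMTS4 and ADAMTS5 cut, and went from 7.52 ± 0.0482 in Parent to 6.89 ± 0.134 (SD, n = 4) in NME1-E5A, a log2 difference of -0.63 (limma, adjusted p = 0.0252). The list's median there was 0.02, beside -0.04 over all features. Among the highest-mean genes that did not pass, BSG, the MMP inducer basigin, differed from Parent by -0.05 in NME1-wild-type. In that line PLAT, tissue plasminogen activator, differed by -0.20, CTSB, cathepsin B, by -0.04, and THBS1, thrombospondin 1, by 0.05. The differences of these genes in the mutant lines are not given here. ETV5, a PEA3-group factor, differed by 0.27, 0.26, 0.17 and 0.29 in the 4 lines, and ADAM12 by 0.10, 0.32, 0.29 and 0.33. Their lists did not rise as a whole. Of the 16 transcription factors, 8, 9, 11 and 7 had a positive difference in these lines. Of the 8 ADAM proteinases, 5, 6, 2 and 4 did.

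The arrays correlated with one another at r between 0.91 and 0.995 across rows, with medians between 6.27 and 6.50. Of 9 melanocyte and melanoma markers measured, SOX10, S100B, MCAM, CSPG4 and NES averaged 9.38, 8.61, 9.86, 8.52 and 9.36 over the 20 arrays. The pigment cell genes MITF, PMEL, MLANA and TYRP1 averaged 5.69, 4.71, 3.69 and 4.17. The table used here holds no detection call, so whether a row was above background was not tested. Of the markers of leukocytes, fibroblasts, endothelial cells and epithelium, 0 genes passed any comparison in limma. A single comparison called 0.00544% to 0.277% of all features.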

How the data were processed

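The deposited log2 expression values, 1 per transcript cluster, are RMA values, according to the series' design text. RMA and limma, with no version, are named per the submitters' processing notes. Software versions, genome build and annotation release are not given in the sources used here. RMA is known to compress differences at low signal. Line and replicate number came from the titles. Rows were named with the platform annotation, which listed 17608 of 18708 rows, and all 47 single-symbol member rows matched RefSeq. The row with the highest mean stood for a repeated symbol.

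A limma (3.58.1, R 4.3.3) model with a mean per line was fitted to the 20 arrays with lmFit and eBayes, leaving 15 residual degrees of freedom, and 10 two-sided comparisons were adjusted by Benjamini-Hochberg over 18384 features. The fit was tested on simulated data. The number of arrays limits the precision. Members, gene lists and tests were chosen with earlier results of these data known. Values on every array were given for members that passed a test and for the 2 members of highest mean in each family. From each list, members that passed against Parent and the 2 of highest mean could be named. Same-numbered arrays of different lines deviated together more often than differently numbered ones. A correlation over 0.1 was found in 25 of 40 same-numbered pairs (median 0.236) and in 38 of 120 others (median -0.054). Since this did not hold in every pair, the main model has no term for the replicate number. Fits with such a term are given below. Alternatives covered centring, normalisation, filters, array weights, blocks, the minimum fold and left-out arrays.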

Additional observations from a re-analysis of the deposited data

Results flagged for a closer look

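Among 45 groups of 4 arrays (9 members in 5 lines), 2 held an array far from the other three, where chance alone gives about 1 in 20 groups. MMP8 was lowest in NME1-K12Q on replicate 2, at 8.57, while the other arrays lay between 8.93 and 8.95. ADAMTS1 was lowest in NME1-P96S on replicate 3, at 8.58, with the others between 8.75 and 8.76. Both arrays are among the 3 with the narrowest spread. The part of that spread in these values was not tested.

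The effect against Parent differed between NME1 lines for 3 members in limma. Parent cancels in such a difference, so these are the pairwise differences between NME1 lines given above and no further tests. For MMP3 and MMP9, no effect against Parent was itself called in the main fit. For MMP3, the effect in NME1-E5A minus that in NME1-wild-type was -1.25, that in NME1-P96S minus that in NME1-wild-type -0.75, that in NME1-K12Q minus that in NME1-E5A 1.41, and that in NME1-P96S minus that in NME1-K12Q -0.91. For MMP8, the effect in NME1-P96S exceeded that in NME1-K12Q by 0.82. For MMP9, the effect in NME1-E5A minus that in NME1-wild-type was 0.71, and that in NME1-P96S minus that in NME1-E5A was -0.78.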

How the results depend on the processing

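Of 268 values of the named differences under alternatives, 215 kept their direction and call, 53 kept the direction but lost the call, and 0 reversed. MMP3 in NME1-K12Q against NME1-E5A kept its call in all 33 alternatives run on it (1.34 to 1.49). Leaving out each array in turn gave 1 to 3 members over the 5 lines (main 3), and against Parent 0 to 0 in NME1-wild-type (main 0), 0 to 2 in NME1-E5A (main 0), 0 to 1 in NME1-K12Q (main 0) and 0 to 1 in NME1-P96S (main 1). It gave 1 to 2 for NME1-E5A against NME1-wild-type (main 2), 0 to 0 for NME1-K12Q against NME1-wild-type (main 0), 0 to 2 for NME1-P96S against NME1-wild-type (main 1), 1 to 1 for NME1-K12Q against NME1-E5A (main 1), 0 to 2 for NME1-P96S against NME1-E5A (main 1) and 1 to 2 for NME1-P96S against NME1-K12Q (main 2). The F-test kept only MMP3 without Parent replicate 3 or NME1-P96S replicate 1, 2 or 4.

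With the replicate block, MMP3 passed against Parent in NME1-wild-type, NME1-E5A and NME1-K12Q (1 member each), and NME1-E5A against NME1-wild-type kept 1 member, MMP3, with MMP9 at an adjusted p of 0.0636. The blocked F-test kept 2 members, MMP3 and MMP8. Of the arrays, 11 of 20 correlated best with an array of their own number. With the number as a random block, 1 member passed in NME1-E5A and 1 in NME1-K12Q against Parent. With arrays centred, 2 members passed over the 5 lines (without MMP8), 1 in NME1-E5A against Parent and 1 in NME1-P96S against NME1-K12Q. With quantile normalisation 1 passed in NME1-E5A against Parent, and the 1 in NME1-P96S against NME1-wild-type was MMP8 in place of MMP3. With features above the median level alone, 20 members remained, MMP3 not among them. The counts were then 1 (MMP9) for NME1-E5A against Parent, 1 for NME1-E5A against NME1-wild-type and 1 for NME1-P96S against NME1-K12Q. They were 0 for NME1-P96S against NME1-wild-type and 0 for NME1-K12Q against NME1-E5A. With the interquartile range as a covariate, 6 members passed over the 5 lines (ADAMTS12, MMP14 and ADAMTS17 added), 2 in NME1-E5A and 1 in NME1-K12Q against Parent, and 2 in NME1-P96S against NME1-wild-type. Array weights gave 11 over the 5 lines, 2 in NME1-E5A, 1 in NME1-K12Q and 5 in NME1-P96S against Parent, and 2 (MMP8 and MMP23A, without MMP3) and 5 in NME1-P96S against NME1-wild-type and NME1-E5A. A trended, robust fit gave 1 for NME1-E5A against NME1-wild-type. Fits to the compared arrays alone gave 0 in all 4 comparisons of NME1-P96S. A test against a 1.5-fold change (treat) gave 0 in those 4 and in NME1-E5A against NME1-wild-type, and 1 in NME1-K12Q against NME1-E5A. Without the 3 narrowest arrays, counts were 2 and 1 in NME1-E5A and NME1-K12Q against Parent, 3 in NME1-P96S against NME1-wild-type, 2 in NME1-K12Q against NME1-E5A and 3 in NME1-P96S against NME1-E5A. Leaving out Parent replicate 2 or these 3 arrays for the members' medians was chosen after seeing the data. Using all rows, a lower-quartile filter or no minimum fold changed no count. The share of all features that passed was not counted under the alternatives, left-out arrays included. Whether a member count rose or fell only with the calls over all features is therefore not known. The cause of these changes was not tested.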

Other observations

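Replicate 1 was the highest MMP1 array in all 5 lines, and MMP1 was the only one of the 48 members (2.08%) with the same replicate number highest in every line, beside 923 of all 18384 features (5.02%). ACAN, beside its fall in NME1-E5A against Parent, was higher in NME1-P96S than in NME1-E5A by 1.03 (limma, adjusted p = 0.000225), than in NME1-wild-type by 0.69 (adjusted p = 0.0152) and than in NME1-K12Q by 0.67 (adjusted p = 0.0154). PCSK5, a proprotein convertase named here after its values were seen, was higher in NME1-P96S than in NME1-wild-type by 0.62 (limma, adjusted p = 0.0388).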
